A study of Homo sapiens with 6 samples.

Results

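A set of 87 protein-coding histone genes was taken from a count table of 58735 genes, 19951 of them protein-coding. They were compared in 786-O, a human line derived from a renal cell carcinoma. The comparison was with and without knockdown of CBX7, a chromobox protein of Polycomb repressive complexes. Members were chosen by gene name, so histone genes under other names are not among them. The 71 genes named HIST1H to HIST4H are replication-dependent histones, and the 16 genes whose names start with H2AF, H3F3 or H1F are variant histones. The groups were sh-CBX7, in which 786-O cells carried a hairpin that targets CBX7 (3 libraries), and sh-Control, in which they carried a control hairpin (3 libraries). The labels give neither the time after the hairpins were introduced nor whether clones were picked. Whether replicates were grown as separate cultures is not stated either. P-values therefore reflect the spread among these 6 libraries alone, which could be technical.

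Histones package DNA: pairs of H2A, H2B, H3 and H4 form the nucleosome core, and H1 binds the linker DNA between nucleosomes. Replication-dependent histone genes are clustered, lack introns in their classical form and are expressed in S phase. Their mRNAs are the main class of animal mRNA that ends in a conserved stem-loop, cut by a U7 snRNP machinery and bound by SLBP, in place of a poly(A) tail. Variant histone genes are mostly expressed through the cell cycle, and their mRNAs are polyadenylated like those of other genes. Poly-T beads, which per the labels' protocols were used here to pick mRNA, bind poly(A) tails, so the libraries are meant to report on tailed transcripts. Whether the replication-dependent counts come from tailed mRNA was not tested.

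The stem-loop sits just after the stop codon of a replication-dependent mRNA, and it is shown here because it is the feature that sets this class apart. In the GENCODE 29 transcripts, 32 of the 71 replication-dependent gene models held the histone stem-loop consensus, in 6 distinct forms. H2AFX was the variant gene whose model also held it, in a form of its own, and 17 of 19597 other coding genes (0.087%) did. Capitals mark the stem-loop in the RNA-sense DNA letters of 5 tested genes.
HIST1H2BD: ccaaaGGCTCTTTTAAGAGCCacgcatgtt
HIST1H2BH: ccaaaGGCTCTTTTCAGAGCCacttaatga
HIST1H4I: aaaaaGGCCCTTTTTAGGGCCcctaagctt
HIST1H2AG: ccaacGGCTCTTTTCAGGGCCacccacgtc
H2AFX: acaaaGGCCCTTTTAAGGGCCaccaccgcc
The models differ in what follows. In 23 of the 32 models, at least 1 transcript ran more than 100 bases past the stem-loop, as in HIST1H2BH with 1640 bases after it, HIST1H2AG with 1761 and HIST1H4I with 212. In the other 9, the transcripts with the stem-loop ended within 100 bases after it. Among these is HIST1H2BD, with 39 bases after it in HIST1H2BD-202, but this gene also has a spliced transcript of 789 bases, HIST1H2BD-201, with no stem-loop, a 3′ UTR of 384 bases and a poly(A) signal. The stem-loop was in none of the transcripts of the 39 remaining models, and 33 replication-dependent models held coding bases alone. Those of HIST1H2BK (381 bases), HIST2H2AC (390 bases) and HIST1H1C (642 bases) are of that kind, so their counts cover the coding stretch alone.

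Few counts fell on replication-dependent genes. They drew 973, 819 and 882 counts in the sh-CBX7 libraries and 588, 542 and 495 in the sh-Control libraries, out of 16384151 to 18868874 counts a library. Variant genes drew 49196, 43600 and 46328 counts in sh-CBX7 and 38662, 39185 and 35476 in sh-Control. Replication-dependent genes made up 1.94%, 1.84% and 1.87% of the 87 genes' counts in sh-CBX7, against 1.498%, 1.36% and 1.38% in sh-Control. The groups did not overlap. Of the 71 replication-dependent genes, 20 had no count in any library. A count of 0 in 104363476 allows up to 0.0288 CPM (counts-per-million of all gene counts), for counting error only. That limit does not hold where reads cannot be assigned to 1 gene, so a 0 there does not show a silent gene. Among the 20, every 75-base stretch of HIST2H3C, HIST2H3A and HIST2H2AA3 also occurs in other genes. HIST1H3J overlaps 88.0% of the HIST1H2AM exon bases. Others of the 20, such as HIST1H1A and HIST1H2BM, share no such stretch. Of the 16 variant genes, 3 had none, the germline-type genes H1FNT and H1FOO and the gene H2AFB2, whose 75-base stretches all occur in other genes.

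Library-wide facts were as follows. CBX7 had 7.59, 6.70 and 8.01 CPM after TMM normalisation in sh-CBX7 and 12.2, 13.2 and 11.2 in sh-Control, or -0.71 on the log2 scale (SE 0.13, edgeR adjusted p = 5.41e-05). All 8 markers of the 786-O line that were listed were tested, and their summed level was 3760 to 3980 CPM in sh-CBX7 and 3845 to 3955 CPM in sh-Control. Of them 3 were called higher (KRT8, KRT18 and MME) and 3 lower (CA12, CDH6 and PAX8), with log2 fold changes from -1.22 for CA12 to 0.81 for MME. PTPRC, CD3E, CDH5 and HBB, listed markers of leukocytes, T cells, endothelium and red cells, were at 0 in all 6 libraries. SNAP25, a neuronal gene listed beside HBB, was not: it had 36.9, 38.1 and 35.8 CPM in sh-CBX7 and 25.1, 27.0 and 28.04 CPM in sh-Control and was called higher. The listed immune genes summed to 0.955 to 2.03 CPM in sh-CBX7 and 1.21 to 2.10 CPM in sh-Control. CD14, the 1 tested, was not called. The endothelial genes summed to 3.99 to 5.25 CPM in sh-CBX7 against 2.53 to 3.50 CPM in sh-Control. Of the 2 tested, PECAM1 was called higher (mean 2.38 CPM in sh-CBX7, 1.47 CPM in sh-Control) and KDR was not called. The fibroblast genes summed to 3.61 to 4.35 CPM in sh-CBX7 against 6.67 to 6.98 CPM in sh-Control. Of the 3 tested, COL1A1 and PDGFRA were called lower and PDGFRB was not called. The part of these immune, endothelial and fibroblast genes in the histone values was not tested. The library sh-Control replicate 1 stood furthest from its group, with a chi-square per gene of 9.23 and 5.78 against the other sh-Control libraries, where the other pairs of a group gave 2.85 to 4.32. In bulk RNA, fewer cells expressing a gene and less RNA per cell cannot be told apart.

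Both classes took a larger share of the counts in sh-CBX7 cells, with the larger ratio in the replication-dependent class. Replication-dependent genes summed to 51.6, 49.7 and 49.9 raw CPM, that is without TMM, in sh-CBX7 and to 34.7, 30.1 and 30.2 in sh-Control. The mean was 50.4 ± 1.02 in sh-CBX7 and 31.7 ± 2.61 in sh-Control (SD, n = 3 each), a ratio of 1.59, and the groups lay apart. Variant genes summed to 2607, 2647 and 2622 raw CPM in sh-CBX7 and to 2279, 2176 and 2165 in sh-Control. Their means were 2625 ± 19.9 in sh-CBX7 and 2207 ± 63.0 in sh-Control (SD, n = 3 each), a ratio of 1.19, again with groups apart. These sums are descriptions without a test. HIST1H2BK alone supplied 42.0%, 39.6% and 36.5% of the replication-dependent counts in sh-CBX7 and 25.3%, 24.9% and 23.0% in sh-Control. Without it the ratio was 1.28, with 30.5 ± 1.00 raw CPM in sh-CBX7 and 23.9 ± 1.74 in sh-Control (SD, n = 3 each), an alternative added after seeing the data.

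By core type, the gap of the replication-dependent class was widest in H2B, through HIST1H2BK. H2B genes summed to 30.2 ± 2.26 raw CPM in sh-CBX7 and 16.6 ± 1.71 in sh-Control (SD, n = 3 each). Without HIST1H2BK the other H2B genes summed to 10.4 ± 0.603 raw CPM in sh-CBX7 and 8.84 ± 0.889 in sh-Control, a ratio of 1.175 in place of 1.82 and a gap smaller than that of H4. H4 genes summed to 6.39 ± 0.571 in sh-CBX7 and 3.91 ± 0.337 in sh-Control, and H1 genes to 5.52 ± 0.711 in sh-CBX7 and 3.95 ± 0.577 in sh-Control. The H4 gap came from HIST1H4I, with 93, 82 and 100 of 109, 107 and 122 H4 counts in sh-CBX7. In sh-Control it held 32, 40 and 46 of 65, 65 and 70. The H1 gap came from HIST1H1C, with 81, 91 and 83 of 89, 100 and 102 H1 counts in sh-CBX7. In sh-Control it held 55, 45 and 61 of 65, 62 and 75. The groups were apart for H2B, H4 and H1. They overlapped for replication-dependent H2A, at 6.58 ± 0.456 in sh-CBX7 and 5.83 ± 1.54 in sh-Control, and for H3, at 1.66 ± 0.425 in sh-CBX7 and 1.39 ± 0.180 in sh-Control. Among variants, H1 summed to 481 ± 20.3 raw CPM in sh-CBX7 and 257 ± 26.0 in sh-Control, and H3 to 942 ± 15.0 in sh-CBX7 and 667 ± 4.47 in sh-Control. Variant H2A ran the other way, with 1203 ± 30.2 raw CPM in sh-CBX7 and 1283 ± 33.8 in sh-Control, and these groups did not overlap either.

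**Figure D1:**
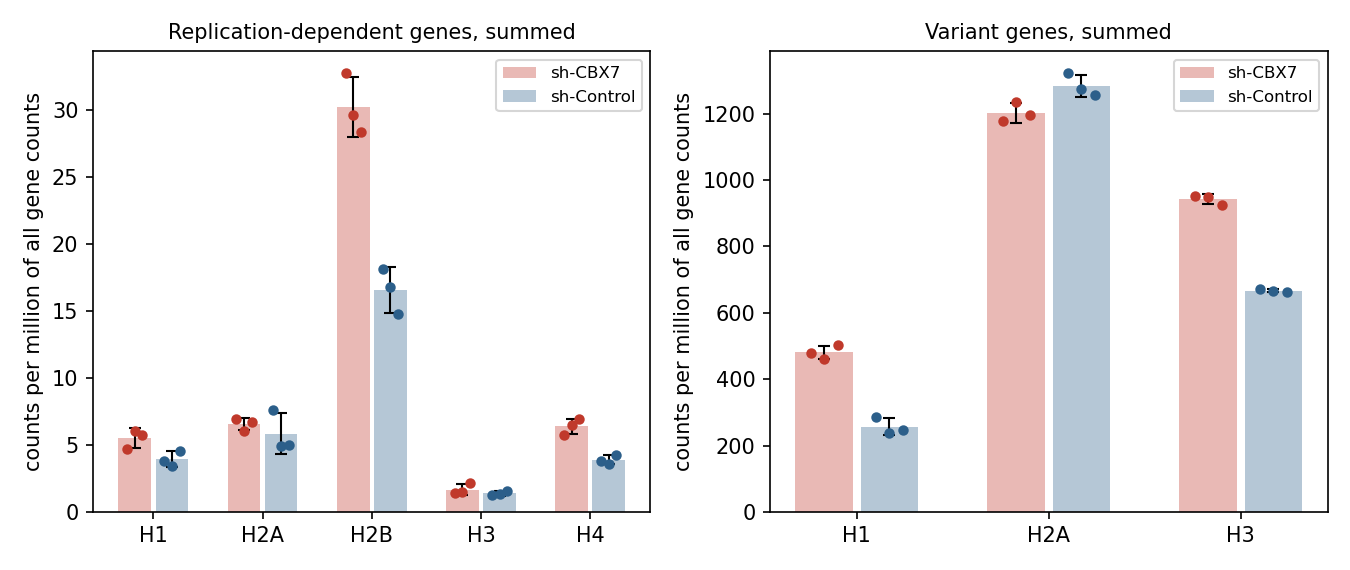
Summed raw CPM of histone genes, by core type, for replication-dependent genes (left) and variant genes (right). Points are libraries, bars are means and error bars are SD over 3 libraries; replication-dependent H2B reached 30.2 in sh-CBX7 against 16.6 in sh-Control (10.4 against 8.84 without HIST1H2BK), and variant H2A was the type with the lower sum in sh-CBX7 (1203 against 1283).

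By genomic cluster, the 55 HIST1 genes on chromosome 6 (GRCh38, 25726132 to 27893843) summed to 49.0, 47.7 and 47.7 raw CPM in sh-CBX7 and 30.8, 27.6 and 27.2 in sh-Control. The 12 HIST2 genes on chromosome 1 summed to 2.23, 1.58 and 2.09 in sh-CBX7 and 3.30, 2.44 and 2.81 in sh-Control. The groups did not overlap in either cluster, and the difference between clusters was not tested. The lower HIST2 sum came from HIST2H2AC: without it the other HIST2 genes summed to 1.64, 0.850 and 1.30 raw CPM in sh-CBX7 and 0.825, 1.06 and 1.34 in sh-Control, with overlap. The sums without HIST1H2BK or HIST2H2AC were added after seeing the data. The 3 HIST3 genes had no counts, and HIST4H4 had 7, 7 and 2 counts in sh-CBX7 and 9, 2 and 3 in sh-Control.

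Of the 71 replication-dependent genes, 12 passed the filter on low counts and could be tested, and of the 16 variants, 9. In edgeR's quasi-likelihood fit over 14573 genes, with calls at a Benjamini-Hochberg adjusted p below 0.05, 6 replication-dependent genes were higher and 2 lower in sh-CBX7, and 4 were not called. Among the variants 6 were higher, 2 lower and 1 not called. Of all tested genes 53.3% were called, 26.1% higher and 27.2% lower. The members' counts, 8 of 12 and 8 of 9 called, stand against that background. The median log2 fold change was 0.69 over the 12 and 0.37 over the 9, against -0.01 over all tested genes, but it was 0.06 over the 51 replication-dependent genes with any count when every gene with a count was tested. HIST1H2BJ and HIST2H2BE passed the filter through sh-CBX7 alone, the group with their higher mean, so the count and the median over the 12 are descriptions of the genes that passed. The other 10 passed in either group alone, and of them 5 were called higher and 2 lower. The members that passed are not the whole class: the 59 replication-dependent genes below it summed to 98, 87 and 97 counts in sh-CBX7 and 98, 102 and 85 in sh-Control. Those sums overlapped.

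**Figure D2:**
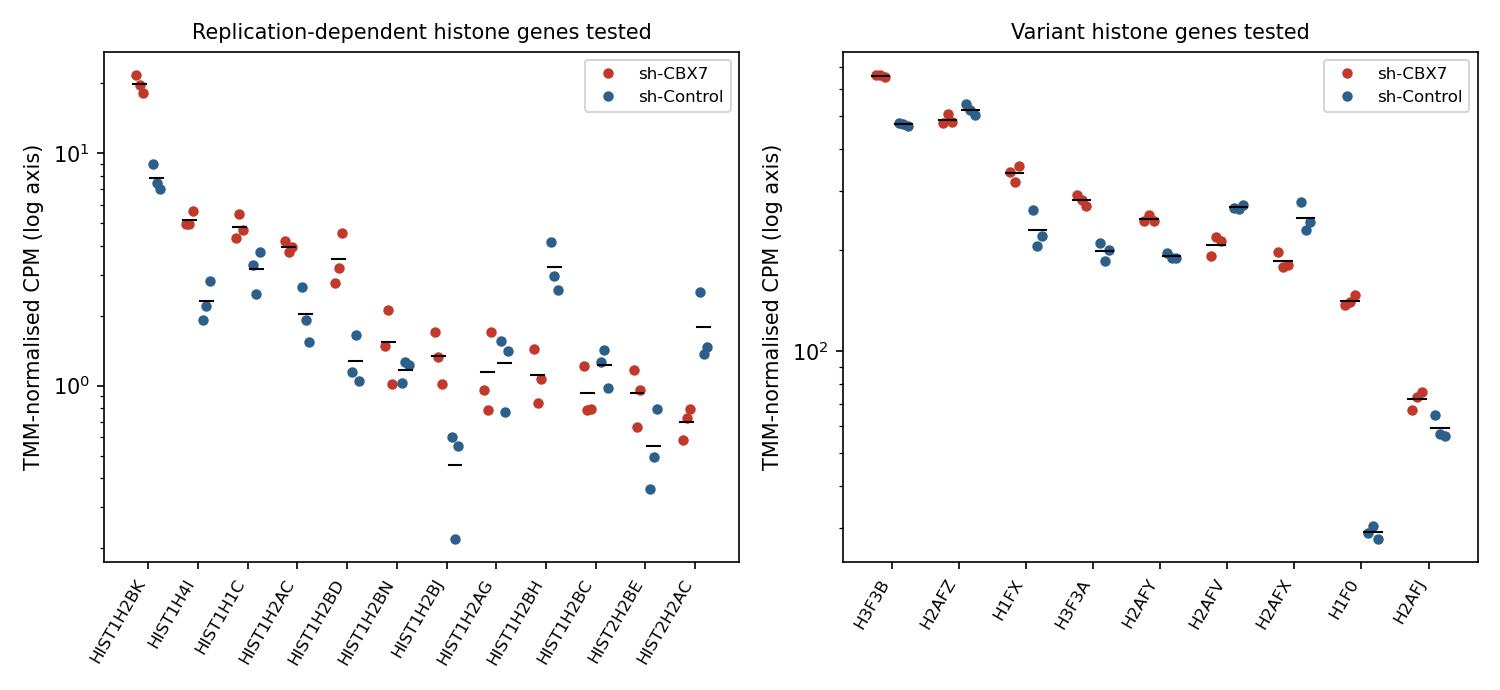
TMM-normalised CPM (log axis) of the 12 tested replication-dependent genes (left) and 9 tested variant genes (right), 1 point a library, sh-CBX7 left of sh-Control, with black bars for means. HIST1H2BK averaged 19.8 CPM in sh-CBX7 and 7.79 in sh-Control, and H1F0 141.5 in sh-CBX7 and 29.04 in sh-Control; HIST1H2BH and HIST2H2AC lay lower in sh-CBX7.

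The widest gap in the variant class was that of H1F0, the gene of linker histone H1.0, which accumulates in many differentiated and resting cells (ENSG00000189060, chromosome 22, 37805093 to 37807436, plus strand). It had 137, 140.5 and 147 CPM in sh-CBX7 against 28.97, 30.35 and 27.8 CPM in sh-Control. Every sh-CBX7 library lay far above every sh-Control one. It was 4.87-fold higher in sh-CBX7, or 2.28 on the log2 scale (SE 0.07), with an edgeR adjusted p of 1.5e-17 and rank 104 from the top among 14573 genes. No 75-base stretch of its model occurs in another gene. H1FX, a linker histone variant, had 342, 319 and 354 CPM in sh-CBX7 against 263, 205.5 and 220 CPM in sh-Control. Its groups did not overlap, and its log2 fold change was 0.56 (SE 0.07, edgeR adjusted p = 7.62e-07). Of the H1FX exon bases, 22.9% overlap the antisense gene H1FX-AS1, which had 35, 37 and 34 counts in sh-CBX7 and 62, 63 and 63 in sh-Control.

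The replication-dependent linker histone gene that could be tested was HIST1H1C, which encodes H1.2 (chromosome 6, 26055787 to 26056428, minus strand). It had 4.30, 5.50 and 4.68 CPM in sh-CBX7 against 3.31, 2.47 and 3.74 CPM in sh-Control. The groups were apart but close, at 0.61 on the log2 scale (SE 0.20, edgeR adjusted p = 0.012). The call was lost without sh-CBX7 replicate 2 (adjusted p = 0.068) and without sh-Control replicate 2 (adjusted p = 0.075). HIST1H1E, the H1.4 gene, stayed below the filter with 5, 8 and 10 counts in sh-CBX7 and 5, 10 and 6 in sh-Control.

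H3F3A and H3F3B encode the same protein, H3.3, the H3 form that is deposited outside replication. H3F3B (chromosome 17, 75776434 to 75785893, minus strand) had 662.5, 663 and 651 CPM in sh-CBX7 against 475, 473 and 467 CPM in sh-Control. H3F3A (chromosome 1, 226061851 to 226072001, plus strand) had 291, 281 and 271 CPM in sh-CBX7 against 209, 185 and 200.04 CPM in sh-Control. Both rose, with no overlap between groups and almost the same size of change. The log2 fold change was 0.48 (SE 0.05, edgeR adjusted p = 2.76e-08) for H3F3B and 0.50 (SE 0.06, adjusted p = 1.74e-07) for H3F3A. Of the 75-base stretches of H3F3A, 11.0% also occur elsewhere, mainly in the processed pseudogene H3F3AP4. That pseudogene drew 847, 718 and 668 counts in sh-CBX7 and 567, 551 and 500 in sh-Control, so the split of reads between them is uncertain. No replication-dependent H3 gene passed the filter. HIST1H3E had 8, 4 and 13 counts in sh-CBX7 and 3, 5 and 3 in sh-Control, and HIST1H3G had 7, 9 and 2 in sh-CBX7 and 4, 2 and 6 in sh-Control.

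The H2A variants moved both ways. H2AFX encodes H2A.X, which is phosphorylated around DNA breaks, and it is the variant whose model carries the stem-loop printed above, with 1044 bases after it (chromosome 11, 119093854 to 119095467, minus strand). It had 198, 179 and 181 CPM in sh-CBX7 against 277, 230 and 243 CPM in sh-Control. H2AFV, the gene of H2A.Z.2, had 192, 218 and 212 CPM in sh-CBX7 against 267, 264.5 and 272 CPM in sh-Control. Both were lower in sh-CBX7 without overlap, by log2 fold changes of -0.43 (SE 0.07, edgeR adjusted p = 1.03e-05) for H2AFX and -0.37 (SE 0.06, adjusted p = 1.12e-05) for H2AFV. H2AFZ, whose product H2A.Z.1 is a close relative of H2A.Z.2, had 477, 506 and 479 CPM in sh-CBX7 against 543, 519 and 502 CPM in sh-Control. Its groups overlapped and it was not called (log2 fold change -0.10, SE 0.05, edgeR adjusted p = 0.13). H2AFY, the gene of macroH2A1, a variant with a large extra domain, averaged 247 ± 5.56 CPM in sh-CBX7 and 192 ± 3.56 CPM in sh-Control (SD, n = 3 each). H2AFJ, the H2A.J gene, averaged 72.1 ± 4.75 CPM in sh-CBX7 and 59.2 ± 4.73 CPM in sh-Control (SD, n = 3 each). Both were higher in sh-CBX7 with groups apart, by 0.37 (SE 0.05, edgeR adjusted p = 4.85e-06) for H2AFY and 0.28 (SE 0.07, adjusted p = 0.0022) for H2AFJ. Exons of C5orf66 and AC026691.1 overlap 30.9% of the H2AFY exon bases, and the strand setting of the counting is not given in the sources used here.

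HIST1H2BK had the most counts of the replication-dependent class (ENSG00000197903, chromosome 6, 27146418 to 27146798, minus strand). It encodes a core H2B. Its levels were 21.7, 19.6 and 18.2 CPM in sh-CBX7 against 8.96, 7.42 and 6.995 CPM in sh-Control. The lowest sh-CBX7 library lay above the highest sh-Control one. This was 2.54-fold, or 1.35 on the log2 scale (SE 0.12), with an edgeR adjusted p of 4.04e-09. Of the 75-base stretches of its coding model, 50.5% also occur in other genes, among them H2BFS, HIST1H2BN, HIST1H2BE and HIST1H2BJ. Part of its counts therefore depends on how reads with several matches were handled, which is not given in the sources used here. HIST1H2BD had 2.76, 3.201 and 4.51 CPM in sh-CBX7 against 1.14, 1.65 and 1.04 CPM in sh-Control. HIST1H2BJ had 1.70, 1.33 and 1.02 CPM in sh-CBX7 against 0.601, 0.220 and 0.552 CPM in sh-Control. Both H2B genes rose without overlap, HIST1H2BD by 1.43 (SE 0.27, edgeR adjusted p = 0.00012) and HIST1H2BJ by 1.57 (SE 0.42, adjusted p = 0.0034). HIST1H2BJ rests on 32, 22 and 18 counts in sh-CBX7 and 10, 4 and 9 in sh-Control. It was tested because of its sh-CBX7 counts, so the filter favoured a difference in this direction.

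HIST1H2BH, another H2B gene of the HIST1 cluster (chromosome 6, 26251651 to 26253710, plus strand), moved the opposite way. It had 1.43, 0.845 and 1.07 CPM in sh-CBX7 against 4.15, 2.97 and 2.58 CPM in sh-Control. All 3 sh-CBX7 libraries lay below all 3 sh-Control ones. It was 2.86-fold lower in sh-CBX7, a log2 value of -1.51 (SE 0.28), with an edgeR adjusted p of 9.83e-05, and none of its 75-base stretches is shared with another gene. The other tested H2B genes were not called. HIST1H2BC had 1.22, 0.785 and 0.790 CPM in sh-CBX7 and 1.26, 1.43 and 0.982 CPM in sh-Control. HIST1H2BN averaged 1.54 ± 0.551 CPM in sh-CBX7 and 1.17 ± 0.131 CPM in sh-Control, and HIST2H2BE 0.930 ± 0.253 CPM in sh-CBX7 and 0.551 ± 0.224 CPM in sh-Control (SD, n = 3 each). The groups overlapped for all 3, with log2 fold changes of -0.39 (SE 0.35), 0.38 (SE 0.34) and 0.76 (SE 0.43).

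**Figure D3:**
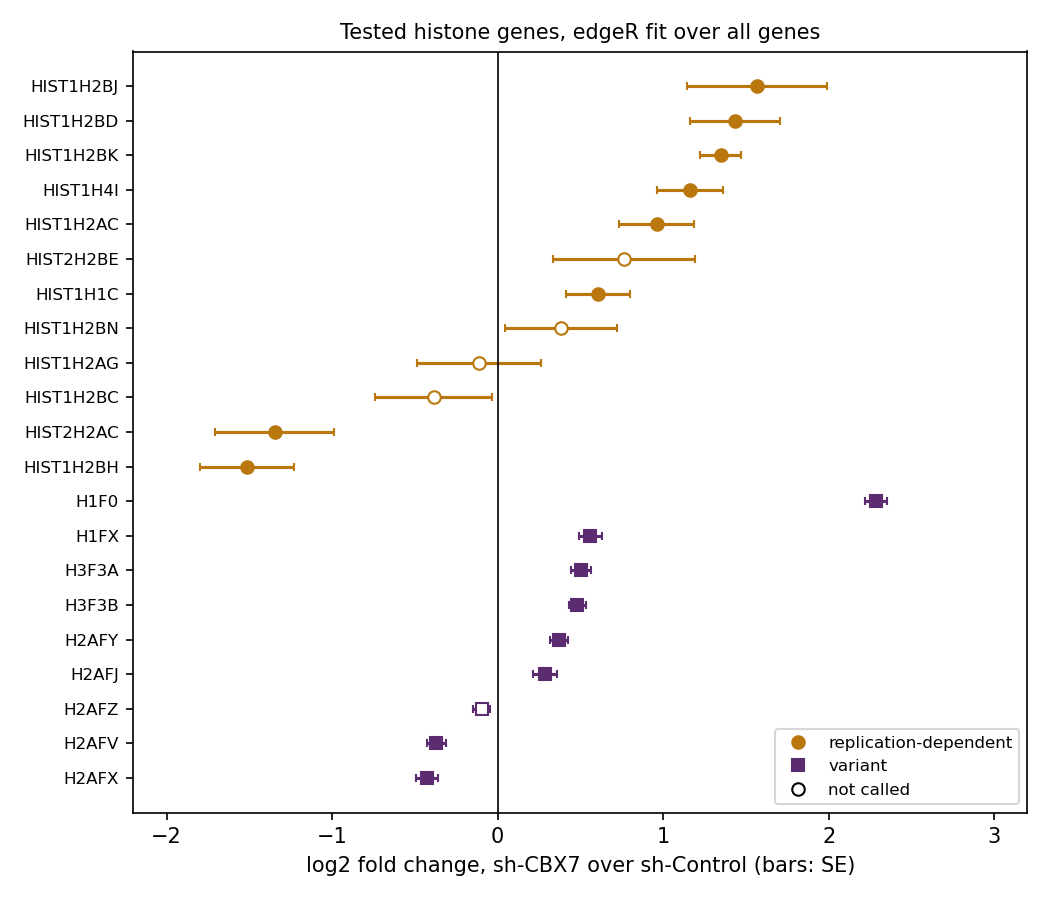
Log2 fold changes (sh-CBX7 over sh-Control) of the 21 tested histone genes with SE bars, circles for replication-dependent and squares for variant genes, open where not called. SEs ran from 0.12 to 0.43 in the replication-dependent class and from 0.05 to 0.07 in the variant class; HIST1H2BH at -1.51 and HIST1H2BJ at 1.57 are the ends of the replication-dependent class, and H1F0 at 2.28 stands above the other variants.

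Among the replication-dependent H2A genes, HIST1H2AC rose and HIST2H2AC fell. HIST1H2AC had 4.19, 3.74 and 3.95 CPM in sh-CBX7 against 2.65, 1.92 and 1.53 CPM in sh-Control. HIST2H2AC had 0.584, 0.725 and 0.790 CPM in sh-CBX7 against 2.52, 1.38 and 1.47 CPM in sh-Control. Neither gene's groups overlapped. The log2 fold change was 0.96 (SE 0.23, edgeR adjusted p = 0.0011) for HIST1H2AC and -1.35 (SE 0.36, adjusted p = 0.0032) for HIST2H2AC. Of the 75-base stretches of HIST2H2AC, 23.7% also occur in HIST2H2AA3 and HIST2H2AA4, which had 1 count between them in all 6 libraries. That count does not show their level. Of the 75-base stretches of HIST2H2AA4, 96.9% occur in other genes, and so do all of those of HIST2H2AA3. The handling of reads with several matches is not given in the sources used here. The part of shared reads in the HIST2H2AC counts was not tested. HIST1H2AG had 0.955, 0.785 and 1.69 CPM in sh-CBX7 against 1.56, 0.770 and 1.41 CPM in sh-Control, with overlap and no call (log2 fold change -0.11, SE 0.37). HIST1H4I, the H4 gene that passed the filter, had 4.94, 4.95 and 5.64 CPM in sh-CBX7 against 1.92, 2.20 and 2.82 CPM in sh-Control. Its groups were apart, at 1.16 on the log2 scale (SE 0.20, edgeR adjusted p = 3.4e-05). It is 1 of 14 H4 genes that encode the same protein. Summed, those 14 genes gave a log2 fold change of 0.70, given without a p because the members were chosen with earlier results known. The higher sum came from HIST1H4I, which held 93, 82 and 100 of the 109, 107 and 122 H4 counts in sh-CBX7. In sh-Control it held 32, 40 and 46 of 65, 65 and 70. HIST1H4H, with the most counts below the filter, had 5, 10 and 14 counts in sh-CBX7 and 7, 9 and 6 in sh-Control, and HIST1H2BO had 4, 7 and 5 in sh-CBX7 and 4, 13 and 6 in sh-Control.

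Levels can be set side by side between genes after division by the model length, with a limit. That length counts the exon bases of all transcripts of a gene, noncoding ones included. For H2AFY it is 17730 bases, where the longest coding transcript has 2789, and for H2AFJ it is 3356, where the coding transcript has 644. The HIST1H2BK model has 381 bases. HIST1H2BK stood at 52.0 ± 4.67 CPM per kilobase in sh-CBX7 and 20.4 ± 2.71 in sh-Control (SD, n = 3 each). The next replication-dependent gene, HIST1H1C, stood at 7.52 ± 0.952 CPM per kilobase in sh-CBX7 and 4.95 ± 1.00 in sh-Control. The 9 tested variants ranged from 13.9 ± 0.314 CPM per kilobase for H2AFY to 225 ± 11.8 for H1FX in sh-CBX7, and in sh-Control from 10.8 ± 0.201 for H2AFY to 226 ± 8.91 for H2AFZ. On that scale HIST1H2BK lay within the range of the tested variants in both groups, above H2AFV (43.7 ± 2.86) in sh-CBX7 and above H1F0 (12.4 ± 0.545) in sh-Control. The low end of that range depends on the long variant models, so the place of HIST1H2BK among the variants is uncertain. The spreads of HIST1H2BK and H1F0 (60.4 ± 2.05 in sh-CBX7) did not meet.

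The tested genes were spread over the forms of the gene model. Of the 23 replication-dependent models that extend past the stem-loop, 7 were tested, 2 were called higher and 1 lower. They summed to 340, 277 and 313 counts in sh-CBX7 and 251, 236 and 217 in sh-Control. Of the 39 models without a stem-loop, 4 were tested, 3 were called higher and 1 lower, and they summed to 571, 480 and 485 counts in sh-CBX7 and 307, 272 and 250 in sh-Control. The remaining 9 gave 1 tested gene, HIST1H2BD, called higher, whose model also holds the spliced transcript without a stem-loop. Of all tested genes 53.3% were called, and with so few tested members nothing is read from the split by model.

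Promoters were matched for 80 of the 87 genes, in 79 distinct regions, in the RefSeq table of GRCh38.p14, which holds 250 bases before and 50 after each gene's start. Those of HIST1H2BK and HIST1H2BD, which rose, and of HIST1H2BH, which fell, are shown because the 3 genes encode closely related H2B proteins from the same cluster. Capitals mark the octamer ATTTGCAT, TATAAA and CCAAT on either strand; overlapping matches run together. The regions are chr6:27146809-27147108 (minus strand), chr6:26157871-26158170 (plus strand) and chr6:26251364-26251663 (plus strand).
HIST1H2BK: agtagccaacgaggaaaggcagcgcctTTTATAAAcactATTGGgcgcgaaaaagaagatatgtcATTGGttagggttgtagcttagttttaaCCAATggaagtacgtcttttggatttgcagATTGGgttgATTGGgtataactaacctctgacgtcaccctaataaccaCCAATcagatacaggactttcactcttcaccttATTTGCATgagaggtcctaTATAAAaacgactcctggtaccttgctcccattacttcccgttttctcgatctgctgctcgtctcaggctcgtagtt
HIST1H2BD: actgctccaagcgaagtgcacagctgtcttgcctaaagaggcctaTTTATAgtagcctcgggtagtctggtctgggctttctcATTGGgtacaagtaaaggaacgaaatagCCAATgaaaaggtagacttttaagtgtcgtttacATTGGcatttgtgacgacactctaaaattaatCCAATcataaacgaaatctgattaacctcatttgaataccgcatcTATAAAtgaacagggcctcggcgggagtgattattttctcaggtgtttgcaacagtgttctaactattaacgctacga
HIST1H2BH: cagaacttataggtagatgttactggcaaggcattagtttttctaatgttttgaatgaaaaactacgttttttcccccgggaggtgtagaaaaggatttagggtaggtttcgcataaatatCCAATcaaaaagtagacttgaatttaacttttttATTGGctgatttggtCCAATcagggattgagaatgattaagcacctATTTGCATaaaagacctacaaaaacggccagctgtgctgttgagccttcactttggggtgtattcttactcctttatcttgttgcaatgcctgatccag
The octamer, a POU2F1 (OCT1) recognition sequence known from H2B promoters, was in 14 of 18 replication-dependent H2B promoters (77.8%) and 11 of 16 H2A promoters (68.8%). It was in none of 6 H1 and 13 H4 promoters. The 1 match among 13 H3 promoters is the table's entry for HIST1H3D, which is the same region as that of HIST1H2AD, so it is not a separate H3 promoter. Of all 35116 promoters 1.77% held it. The printed HIST1H2BH promoter has the octamer and no TATAAA, that of HIST1H2BD has TATAAA and no octamer, and that of HIST1H2BK has both. CCAAT was in all 6 H1, 16 H2A, 18 H2B and 13 H3 promoters of the replication-dependent class, and in 3 of 13 H4 promoters. It was also in 11 of 14 variant promoters (78.6%), against 34.6% of all promoters. TATAAA was in 44 of 66 replication-dependent promoters (66.7%) and 4 of 14 variant ones (28.6%), against 11.5% of all. These are matches of letters and not measured binding.

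Many H2A and H2B genes lie head to head and share the stretch between their starts, and 12 pairs of divergent histone genes, mostly of this kind, had starts within 1000 bases of each other. In the 3 pairs with both genes tested, the ratio of H2B to H2A counts lay apart in the groups. For HIST2H2BE over HIST2H2AC, 323 bases apart, the log2 ratio was 1.00, -0.13 and 0.28 in sh-CBX7 against -2.81, -1.47 and -0.89 in sh-Control. For HIST1H2BJ over HIST1H2AG, 292 bases apart, it was 0.83, 0.76 and -0.74 in sh-CBX7 against -1.38, -1.81 and -1.35 in sh-Control. In both of these pairs the H2B partner had the larger share in sh-CBX7, and in both it passed the filter through sh-CBX7 alone, so the choice of these pairs favoured that direction. For HIST1H2BC over HIST1H2AC, 219 bases apart, it was -1.78, -2.25 and -2.32 in sh-CBX7 against -1.07, -0.43 and -0.64 in sh-Control, so here, where both genes passed in either group, the H2B partner had the smaller share. The groups did not overlap in any of the 3 pairs, and the differences of means were 2.11, 1.80 and -1.41 in the order given. The two-sided exact permutation p was 0.1 for each pair, the smallest that the 20 arrangements of 3 against 3 libraries allow, and the ratios were added after seeing the data.

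**Figure D4:**
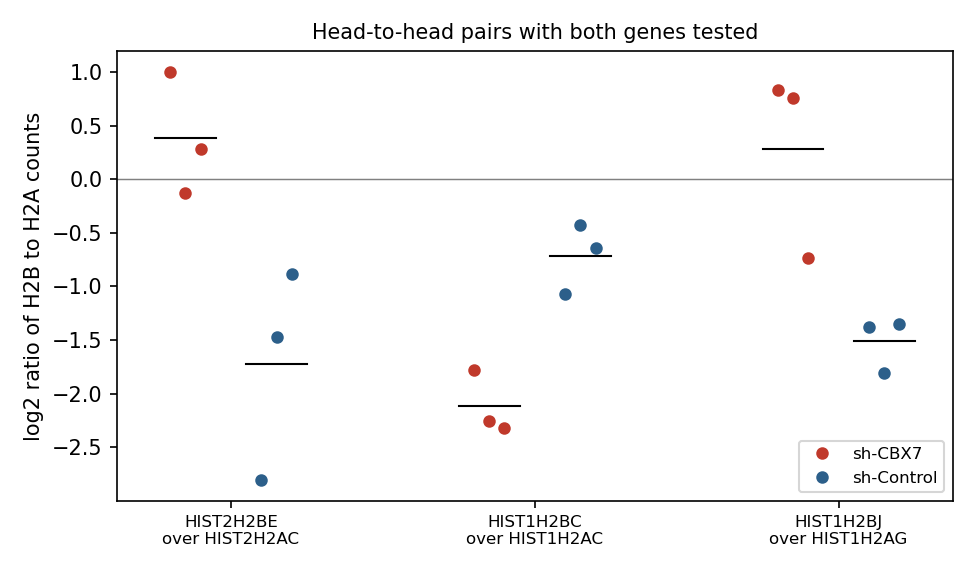
Log2 ratio of H2B to H2A counts in each library for the 3 head-to-head pairs with both genes tested, sh-CBX7 left of sh-Control, black bars for means. The ratio was higher in sh-CBX7 for HIST2H2BE/HIST2H2AC (by 2.11) and HIST1H2BJ/HIST1H2AG (by 1.80) and lower for HIST1H2BC/HIST1H2AC (-1.41).

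Of 20 listed genes of histone mRNA synthesis and 3′ processing, all tested, 4 were higher and 5 lower (25.0%), so 45.0% were called, against 53.3% of all tested genes (26.1% higher, 27.2% lower). Their median log2 fold change was -0.09. SLBP, the stem-loop binding protein, had 165, 157 and 149.5 CPM in sh-CBX7 against 156, 156 and 155 CPM in sh-Control, with overlap (log2 fold change 0.02, SE 0.06). NPAT, the coactivator of histone gene clusters, was not called either (0.12, SE 0.12). SRRT (ARS2), a partner of the cap-binding complex, had 80.2, 75.1 and 80.2 CPM in sh-CBX7 against 152, 145 and 150.03 CPM in sh-Control. UPF1, a helicase needed for the decay of stem-loop histone mRNA, averaged 77.8 ± 5.47 CPM in sh-CBX7 and 119 ± 6.56 CPM in sh-Control (SD, n = 3 each). Both fell without overlap, SRRT with a log2 value of -0.92 (SE 0.06, edgeR adjusted p = 1.47e-11) and UPF1 with -0.62 (SE 0.07, adjusted p = 6.05e-08). SYMPK, the scaffold of the cleavage complex, fell (-0.39, SE 0.07), and TENT4A, a non-canonical poly(A) polymerase, rose (0.39, SE 0.07).

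Histone chaperones were mostly lower in sh-CBX7, with 2 higher and 14 lower (56.0%) of 25 tested, against 27.2% lower of all genes, and a median of -0.26. SSRP1, a subunit of the FACT chaperone, fell to 135 ± 5.93 CPM in sh-CBX7, against 261 ± 1.75 CPM in sh-Control (SD, n = 3 each). MCM2, a replicative helicase subunit that binds H3 and H4, had a log2 fold change of -0.89 (SE 0.07), and ASF1B, which hands H3 and H4 to assembly factors, one of -0.82 (SE 0.07). RBBP4, a histone-binding subunit of CAF-1 and of Polycomb complexes, rose to 176 ± 7.64 CPM in sh-CBX7, against 105 ± 9.05 CPM in sh-Control, by 0.74 (SE 0.07, edgeR adjusted p = 2.76e-09).

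Of 40 listed S phase genes, edgeR called 0 higher and 32 lower (80.0%, against 27.2% of all genes), with a median log2 fold change of -0.42. The count of higher genes was also 0 at an unadjusted p below 0.05, with DESeq2 and with limma voom, and it was 1 without sh-Control replicate 1, namely E2F1. TK1, the thymidine kinase of S phase, had 115, 110.0 and 118 CPM in sh-CBX7 against 374, 313 and 330 CPM in sh-Control. The helicase subunits MCM6 (-1.11, SE 0.06) and MCM4 (-0.77, SE 0.05) and the methylation maintenance factor UHRF1 (-0.85, SE 0.07) also fell. The part of S phase in the histone values was not tested.

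**Figure D5:**
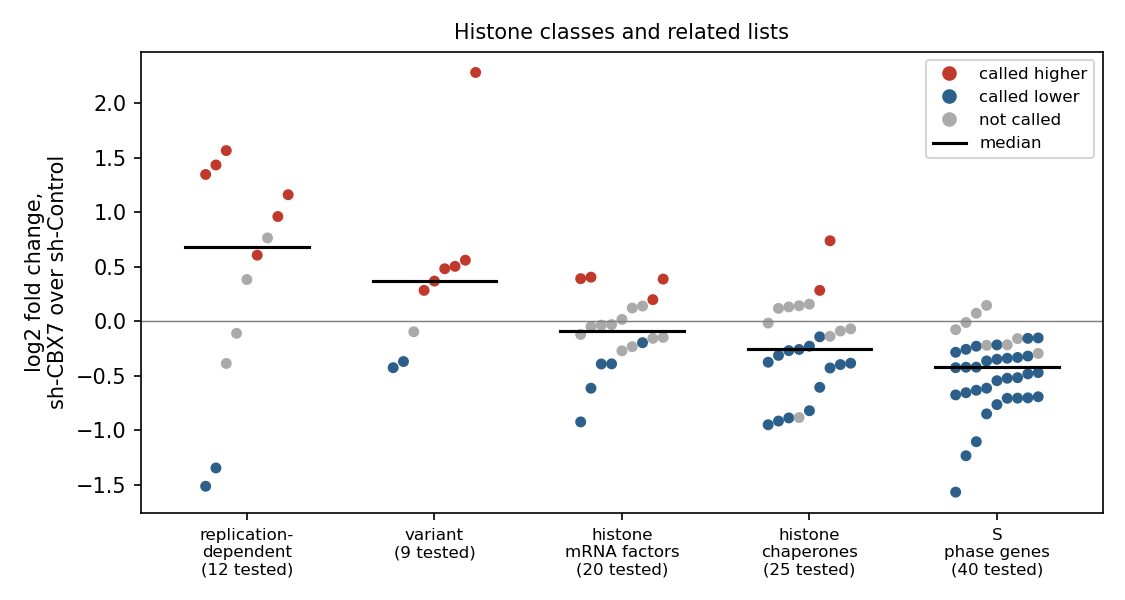
Log2 fold changes (sh-CBX7 over sh-Control) of the tested genes of both histone classes and of 3 related lists, 1 point a gene, red for called higher, blue for called lower, grey for not called, with black bars for medians. The medians were 0.69 for the 12 tested replication-dependent histones (0.06 over the 51 with any count), 0.37 for variants, -0.09 for histone mRNA factors, -0.26 for chaperones and -0.42 for S phase genes.

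Groups without overlap in CPM were found for 8 of the 12 tested replication-dependent genes and 8 of the 9 variants, against 59.0% of all tested genes. Counts limited the replication-dependent class: its tested genes averaged 0.6995 to 19.8 CPM in sh-CBX7 and 0.458 to 7.79 CPM in sh-Control, against 72.1 to 659 CPM in sh-CBX7 and 29.04 to 521 CPM in sh-Control for the variants. The widest SE, 0.43 for HIST2H2BE, was larger than most of the variants' log2 fold changes.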

How the data were processed

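Poly-T selected RNA of 786-O cells was sequenced from a directional library kit, per the labels' protocols, in 3 sh-CBX7 and 3 sh-Control libraries. The deposited table holds whole-number read counts per gene, without normalization. Tools listed in the submitters' processing notes are featureCounts 1.5.0-p3, HISAT2 2.0.5, Trimmomatic and FastQC, in no stated order. The strand setting and the handling of reads with several matches are not given in the sources used here. The notes name hg19, whereas the table's coordinates are those of GENCODE 29 on GRCh38, which was used for positions and gene models. The table's columns read siCBX7; they were matched to the sh-CBX7 libraries by target and replicate number.

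Genes kept by filterByExpr (14573) were fitted with edgeR 4.0.16 (R 4.3.3), TMM normalization and the quasi-likelihood test, unpaired, with Benjamini-Hochberg adjustment over all of them and calls below 0.05. The SE is the size of the log2 fold change divided by the square root of F. The procedure was tested on simulated data. DESeq2 1.42.0 and limma 3.58.1 (voom) served as alternatives, with other scalings and filters, a replicate block, summing of identical proteins and leaving out each library. Named genes are every tested member, the 6 untested members with the most counts, CBX7, SLBP, NPAT and the 4 genes of smallest p in each related list; the other genes were named after their values were seen. The members and lists were chosen with earlier results of these data known. Class sums are raw CPM of all gene counts, and levels of single genes are TMM-normalised CPM; limits for a count of 0 cover counting error only. Total counts per library were 16384151 to 18868874. Libraries of a group differed beyond sampling noise and were kept as separate samples.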

Additional observations from a re-analysis of the deposited data

How the results depend on the processing

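Among 15 alternative fits, a stricter count filter left out HIST2H2BE. Summing identical proteins merged H3F3A with H3F3B, and it merged HIST1H4I, HIST1H2BC and HIST1H2AG with other genes. Wherever a gene was fitted on its own, 19 of the 21 tested histone genes kept their direction and call. The exceptions were HIST1H1C, whose call was lost without sh-CBX7 replicate 2 or sh-Control replicate 2, and the uncalled HIST1H2AG, which ran from -0.50 to 0.087 with a library left out and was positive without sh-CBX7 replicates 1 or 2 or sh-Control replicate 1. SLBP, also uncalled, ran from -0.020 (without sh-CBX7 replicate 1) to 0.050. Replication-dependent genes called higher ranged from 5 to 6 when libraries were left out. The replicate numbers share no batch in the labels, so same-numbered libraries were not taken as pairs. Deviations of same-numbered libraries correlated at 0.06, 0.06 and 0.04, and those of differently numbered libraries at -0.047 to -0.009. Whether same-numbered libraries share a batch was not tested. The replicate block gave 6 replication-dependent genes higher and 2 lower, and 6 variants higher and 2 lower. The replication-dependent ratio of 1.59 was 1.71 with counts per kilobase and 1.28 without HIST1H2BK, and 1.55 to 1.67 with a library left out. The variant ratio of 1.19 was 1.14 per kilobase and 1.13 without H3F3B, and 1.18 to 1.21 with a library left out. S phase genes called higher ranged from 0 to 1 with a library left out, the 1 being E2F1 without sh-Control replicate 1. With every gene that had a count tested, the replication-dependent median fell to 0.06 over 51 genes, with 6 higher and 2 lower as before. The cause of these shifts was not tested. Low counts limit the replication-dependent class most.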
